A study of Mus musculus with 36 samples.

Results

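The genes described here encode Polycomb, Trithorax and chromatin remodelling proteins, listed as 47 mouse genes. A member was read from probes of a 1-colour Illumina bead array whose annotated symbol, current or older, was that gene, and the measured probe with the highest mean stood for it. Of the 47 genes, 38 had a measured probe, and 34 passed the filter on dim probes and were tested among 10533 features, of which 9235 carried a gene symbol. Each of the 34 rests on 1 probe, so no second probe checks its value. Ezh1, Kdm2b, Cbx1, Cbx3, Suv39h1, Kdm3a and Kdm6b had no probe under their names, and the probes of Bmi1 and Arid1a held placeholder values in place of a signal. Suz12, Ring1, Cbx5 and Rbbp5 were measured but stayed below the filter, with highest signals of 42.1, 65.3, -5.6 and 49.8 intensity units, and are not described further. The quality of these probes could not be checked, so the low signals do not show that the genes are not expressed.

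Total RNA came from 30 clones of induced pluripotent stem (iPS) cells, which are somatic cells returned to a state like that of the early embryo, here mouse embryonic fibroblasts (MEFs) with overexpressed factors. The factors were Oct4, Sox2, Klf4 and Tbx3 in OSKT (11 clones), Oct4, Sox2 and Esrrb in OSE (8 clones), and Oct4, Sox2 and Klf4 in OSK (11 clones), so that Oct4 and Sox2 are common to all clones. Embryonic stem (ES) cells were the line D3 in MEF medium (2 replicates) and the line R1 in medium for mouse ES cells (4 replicates). The labels give neither the strain or age of the embryos nor the medium of the clones, and they do not tell whether clones came from separate infections.

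Polycomb proteins form complexes that keep developmental genes silent in pluripotent cells: Polycomb repressive complex 2 (PRC2) methylates histone H3, and PRC1 ubiquitinates histone H2A and compacts chromatin. Trithorax group proteins oppose them, among others through the COMPASS complexes, which methylate histone H3 at active promoters. Remodelling complexes such as BAF, NuRD and INO80 use ATP to slide, evict or exchange nucleosomes, and several of them are needed for self-renewal or reprogramming.

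Signals are given as log2 of the background-corrected, quantile-normalized intensity, so a difference of 1 is a doubling, and levels are compared between samples, never between genes. Intervals and SEs are not adjusted for the number of tests. A change was called at a Benjamini-Hochberg adjusted p under 0.05 over all 10533 features in a limma fit of all 36 arrays. Each array had 8675 to 9720 probes above background, and the number of arrays limits the precision. Some clones with the same factors differed no more than R1 replicates did among themselves: 6 of 55 OSKT pairs, 3 of 28 OSE pairs and 7 of 55 OSK pairs. Averaging such clones leaves 6 OSKT, 5 OSE, 6 OSK, 1 D3 and 1 R1 sample, so the p-values measure the spread between these arrays, which may be partly technical. In bulk RNA, fewer cells of a type and less RNA per cell cannot be told apart. The pluripotent cell markers were present, with 14 of 15 tested. Among them Nr0b1 stood below background on every array of the OSKT, OSE and OSK clones. The list includes the overexpressed factors Pou5f1 (Oct4), Sox2, Esrrb and Klf4, and whether their probes also read the added copies was not checked.

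The comparison of the iPS clones with R1 (the equal mean of the OSKT, OSE and OSK means, minus R1) asks how chromatin genes of reprogrammed cells stand against those of ES cells. In the clones, 7 members were higher and 14 lower, and 13 did not pass, which is 61.8% of the 34 tested members beside 57% of all features (28% higher and 29% lower). The share called is thus near the background. In 7 members the clones and R1 did not overlap (20.6%, beside 20.8% of all features). The median difference was -0.11 over the members and 0.010 over all features. Scaling the arrays to a common median in place of quantiles gave 5 higher and 21 lower members, while under that scaling 20.2% of all features were higher and 36.4% lower. The lower members included 4 of the 5 PRC2 genes, 2 of 4 PRC1 genes and 2 of 3 COMPASS core genes, while the higher ones included 3 of 7 CHD and NuRD genes.

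**Figure D1:**
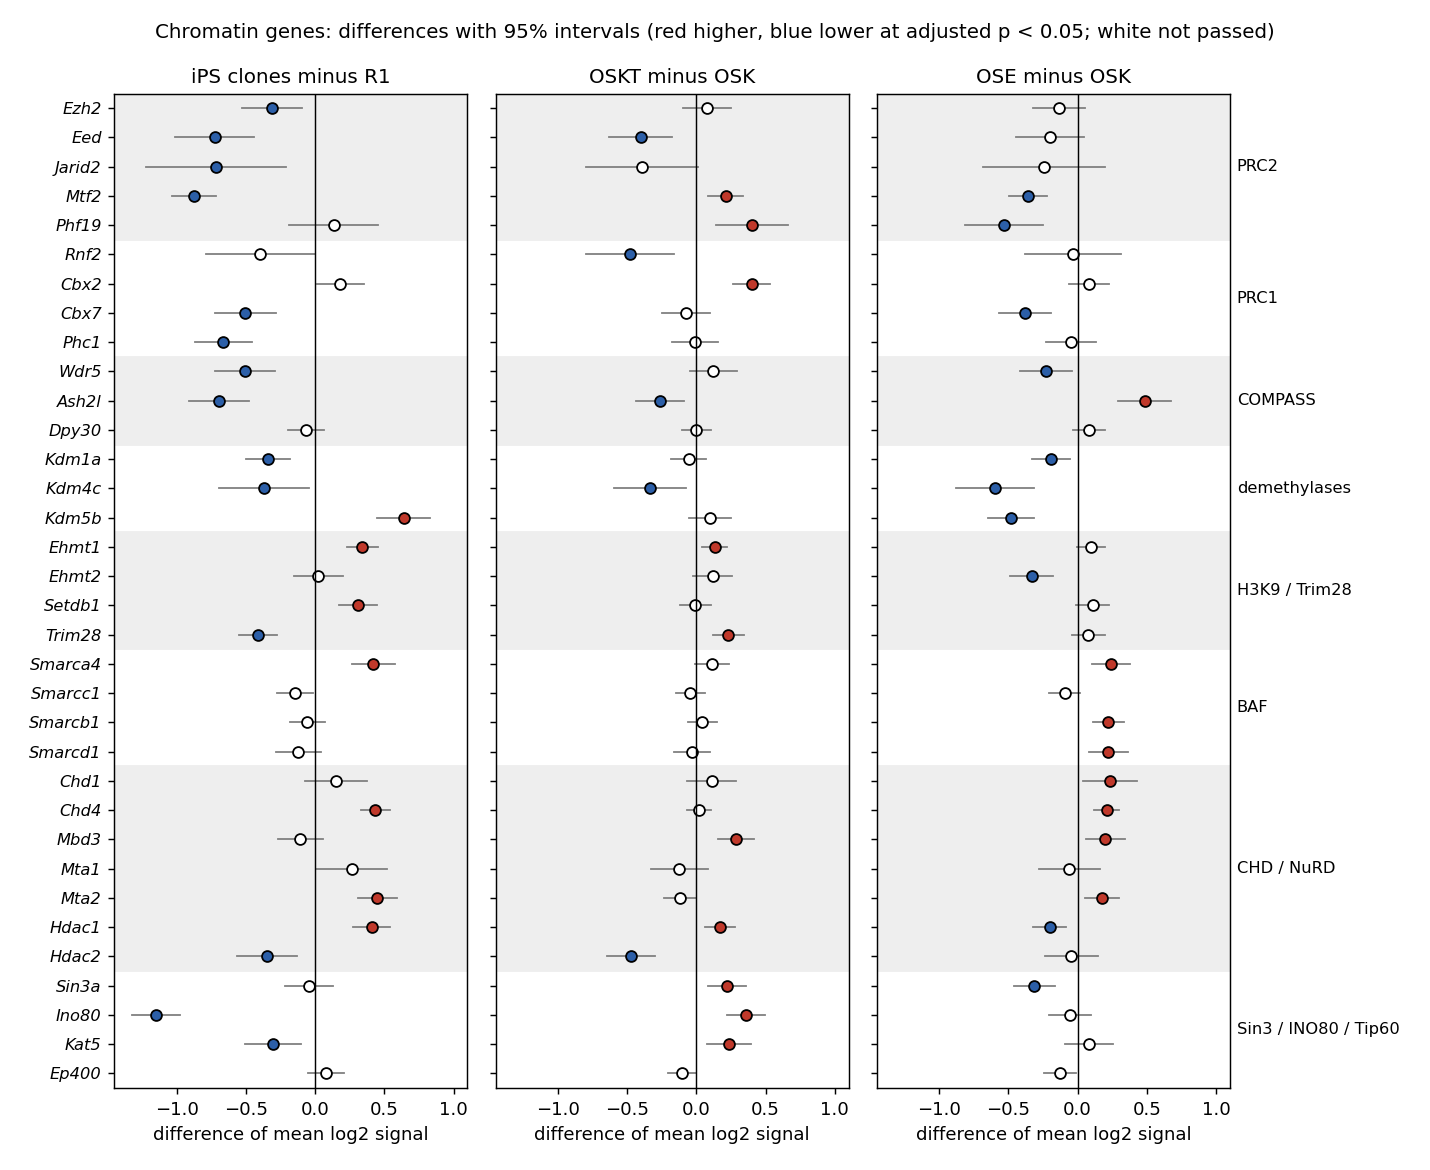
Differences of the mean log2 signal for the 34 tested members, ordered by complex, in the iPS clones minus R1, OSKT minus OSK and OSE minus OSK; points are estimates, bars 95% intervals, and colour marks an adjusted p under 0.05. In the left panel Ino80 lies farthest below 0 (-1.15) and Kdm5b farthest above it (0.64).

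Among the PRC2 members, Mtf2, a Polycomb-like protein that brings PRC2 to CpG islands, had the largest deficit. Mtf2 signals lay between 12.97 and 13.57 (median 13.45) in OSKT clones, between 12.56 and 13.02 (median 12.82) in OSE clones and between 13.01 and 13.29 (median 13.16) in OSK clones, against 13.93, 13.89, 14.18 and 13.96 in the R1 replicates. No clone reached the lowest R1 value. The difference was -0.88 on the log2 scale (SE 0.08, adjusted p = 5.83e-12), 1.84-fold lower on average and below the R1 mean in all 30 clones.
Eed, the PRC2 subunit that binds methylated histone H3 and stimulates the enzyme, lay between 11.70 and 12.53 (median 12.14) in OSKT clones, between 11.38 and 12.75 (median 12.43) in OSE clones and between 12.23 and 12.77 (median 12.55) in OSK clones, against 13.20, 13.07, 12.96 and 12.98 in the R1 replicates. The clones and R1 did not overlap for Eed either. The difference was -0.72 on the log2 scale (SE 0.14, adjusted p = 3.89e-05), 1.65-fold lower.
Jarid2, a PRC2 accessory protein that binds DNA, lay between 6.80 and 8.19 (median 7.36) in OSKT clones, between 6.02 and 8.13 (median 7.75) in OSE clones and between 6.73 and 8.17 (median 7.87) in OSK clones, against 8.48, 8.18, 8.62 and 7.99 in the R1 replicates. Some clones reached into the R1 range, and Jarid2 stood above background on 8 of 11 OSKT, 7 of 8 OSE and 10 of 11 OSK arrays. Its difference was -0.72 on the log2 scale (SE 0.25, adjusted p = 0.014), and without R1 replicate 1 or R1 replicate 3 the adjusted p was 0.0526 or 0.071. Ezh2, the methyltransferase itself, differed by -0.31 on the log2 scale (SE 0.11, adjusted p = 0.0137), with an adjusted p of 0.0739 without R1 replicate 2. Phf19, a second Polycomb-like protein, did not pass, at 0.14 (95% interval -0.19 to 0.46).

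In PRC1, Phc1, a polyhomeotic protein that joins PRC1 complexes into larger assemblies, lay between 14.62 and 14.99 (median 14.91) in OSKT clones, between 14.54 and 15.22 (median 14.74) in OSE clones and between 14.48 and 15.09 (median 15.01) in OSK clones, against 15.56, 15.53, 15.44 and 15.47 in the R1 replicates. All 30 clones were below all R1 replicates, and the difference was -0.66 on the log2 scale (SE 0.10, adjusted p = 8.48e-07), 1.58-fold lower. Cbx7, the main chromobox protein of ES cells, which reads the PRC2 mark, lay between 12.62 and 13.10 (median 12.88) in OSKT clones, between 12.28 and 12.98 (median 12.47) in OSE clones and between 12.56 and 13.27 (median 13.03) in OSK clones, against 13.35, 13.31, 13.23 and 13.29 in the R1 replicates. Its difference was -0.50 on the log2 scale (SE 0.11, adjusted p = 0.00013), with every clone below the R1 mean but a small overlap of the ranges. Rnf2, the ubiquitin ligase of PRC1, did not pass at -0.40 (95% interval -0.79 to 0.00017), nor did Cbx2, another chromobox protein, at 0.18 (95% interval 0.02 to 0.35).

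Of the COMPASS core, which all H3 methyltransferases of the MLL and SET1 type share, Ash2l lay between 10.38 and 11.02 (median 10.70) in OSKT clones, between 11.12 and 11.93 (median 11.32) in OSE clones and between 10.72 and 11.13 (median 11.01) in OSK clones, against 11.61, 11.68, 11.68 and 11.89 in the R1 replicates. OSKT and OSK clones were all below R1, and OSE clones reached into its range. Ash2l differed by -0.70 on the log2 scale (SE 0.11, adjusted p = 8.56e-07), 1.62-fold lower. Wdr5, the scaffold of the core, averaged 11.90 ± 0.20 in OSKT, 11.55 ± 0.20 in OSE and 11.78 ± 0.22 in OSK clones, and 12.25 ± 0.19 in R1 (SD, n = 11, 8, 11 and 4), a difference of -0.51 on the log2 scale (SE 0.11, adjusted p = 0.000103). Dpy30, a small dimeric subunit, did not pass at -0.07 (95% interval -0.20 to 0.06).
The demethylases diverged. Kdm5b, which removes the methyl groups that COMPASS adds, lay between 11.91 and 12.48 (median 12.35) in OSKT clones, between 11.40 and 12.13 (median 11.68) in OSE clones and between 11.98 and 12.34 (median 12.16) in OSK clones, against 11.51, 11.44, 11.33 and 11.29 in the R1 replicates. OSKT and OSK clones were all above R1, and the OSE clones overlapped it. The difference was 0.64 on the log2 scale (SE 0.09, adjusted p = 3.63e-07), 1.56-fold higher. Kdm1a, the flavin-dependent demethylase LSD1, was lower, with a difference of -0.34 on the log2 scale (SE 0.08, adjusted p = 0.000356). Kdm4c, a demethylase of heterochromatic histone H3, was called lower at -0.37 (adjusted p = 0.0466) in the limma fit, and this call was lost under 15 of the 34 single-array omissions and 5 of 12 other settings.

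Ino80, the ATPase of the INO80 remodeller, which exchanges and spaces nucleosomes, had the largest difference of all members. Its signals lay between 8.79 and 9.31 (median 9.05) in OSKT clones, between 8.42 and 8.84 (median 8.60) in OSE clones and between 8.41 and 8.96 (median 8.59) in OSK clones, against 10.06, 9.90, 9.80 and 9.89 in the R1 replicates. The clones stood well apart from R1, and the D3 replicates, at 9.59 and 9.64, also lay above every clone. Ino80 differed by -1.15 on the log2 scale (SE 0.08, adjusted p = 5.54e-14), 2.22-fold lower, with 30 of 30 clones below the R1 mean. Kat5, the acetyltransferase Tip60, was lower, with a difference of -0.30 on the log2 scale (SE 0.10, adjusted p = 0.00826), with an adjusted p of 0.0536 without R1 replicate 4. Ep400, the ATPase of the same complex, and Sin3a, a corepressor scaffold, did not pass, at 0.08 (95% interval -0.05 to 0.21) and -0.05 (95% interval -0.22 to 0.13).
In the NuRD deacetylase complex, Chd4, its ATPase, lay between 10.51 and 10.84 (median 10.69) in OSKT clones, between 10.80 and 10.96 (median 10.87) in OSE clones and between 10.49 and 10.77 (median 10.68) in OSK clones, against 10.31, 10.29, 10.28 and 10.35 in the R1 replicates. All clones exceeded all R1 replicates, by 0.44 on the log2 scale (SE 0.05, adjusted p = 7.26e-09), 1.35-fold higher. Mta2, a scaffold of the complex, was higher by 0.45 on the log2 scale (SE 0.07, adjusted p = 1.36e-06), and Hdac1 by 0.41 on the log2 scale (SE 0.07, adjusted p = 2.42e-06). Its paralogue Hdac2 was lower, with a difference of -0.35 on the log2 scale (SE 0.11, adjusted p = 0.00584). Of the other CHD and NuRD genes, Mbd3, Mta1 and Chd1 did not pass, at -0.11, 0.26 and 0.15.
Smarca4, the BAF ATPase Brg1, was higher by 0.42 on the log2 scale (SE 0.08, adjusted p = 1.49e-05), while the BAF core genes Smarcc1, Smarcb1 and Smarcd1 did not pass, at -0.14, -0.06 and -0.12. Among the genes of heterochromatic H3 methylation, Ehmt1 was higher by 0.34 on the log2 scale (SE 0.06, adjusted p = 2.3e-06) and Setdb1 by 0.31 on the log2 scale (SE 0.07, adjusted p = 0.000207); with a common median the values were 0.16 and 0.14 and did not pass (adjusted p = 0.0757 and 0.203). Ehmt2, the partner of Ehmt1, stood at 0.02. Trim28, the corepressor that recruits Setdb1 to retroelements, was lower, with a difference of -0.41 on the log2 scale (SE 0.07, adjusted p = 3.28e-06).

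**Figure D2:**
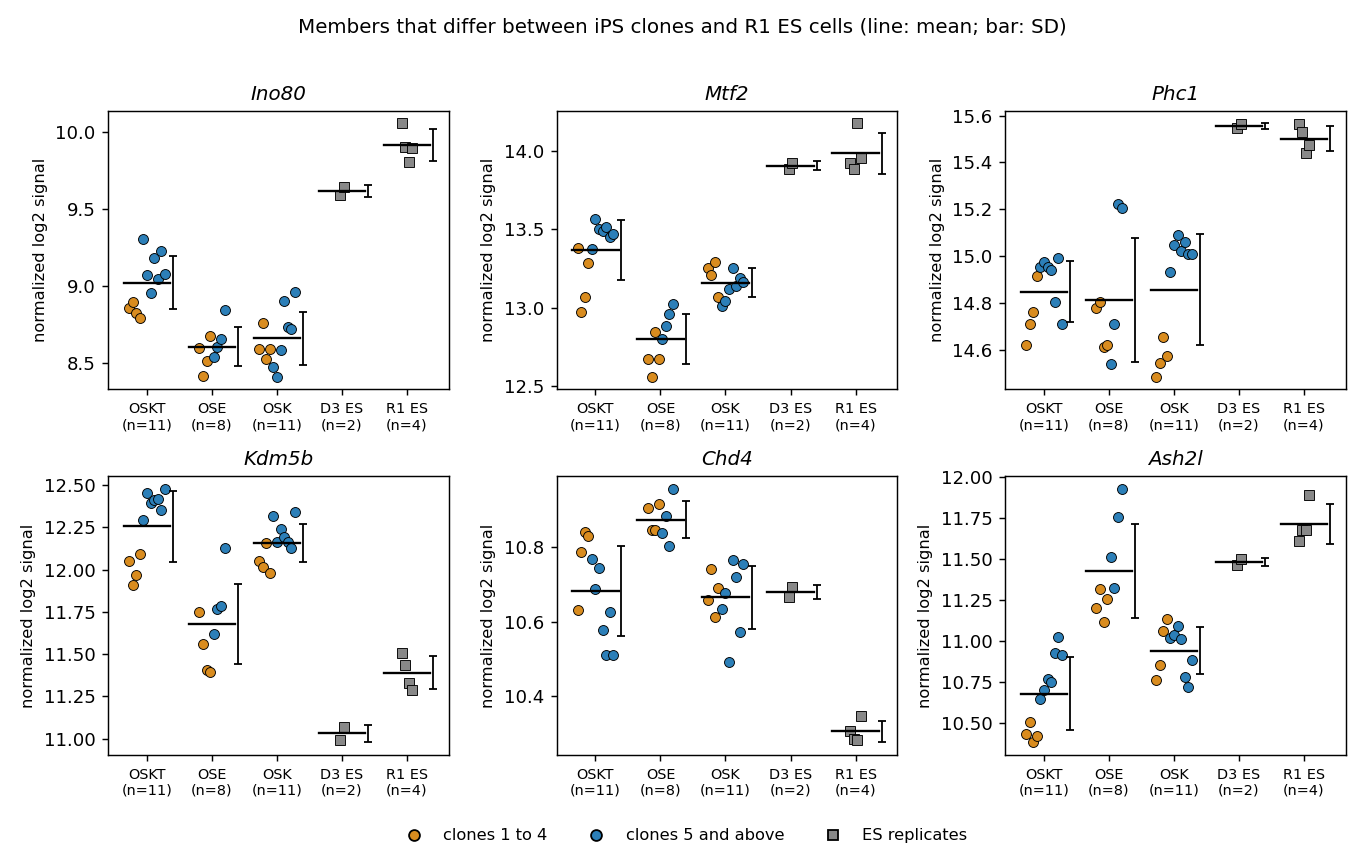
Normalized log2 signal of Ino80, Mtf2, Phc1, Kdm5b, Chd4 and Ash2l on every array of the OSKT, OSE and OSK clones and of D3 and R1; circles are clones, coloured by clone number, squares are ES replicates, lines are means and bars SDs. For Ino80, Mtf2 and Phc1 all clones lie below both ES lines. For Chd4 the R1 replicates lie lowest. For Kdm5b the D3 replicates lie lowest (10.99 and 11.07), and the R1 replicates (11.29 to 11.51) overlap the lower OSE clones.

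When near-identical arrays were averaged, which leaves R1 as a single sample, 11 of the 21 calls held: Mtf2, Phc1, Ehmt1, Trim28, Kdm5b, Ash2l, Smarca4, Chd4, Mta2, Hdac1 and Ino80. Marker genes of cell types also differed in this comparison. Of 14 pluripotent cell markers, 11 were lower and 1 higher, with an array mean of 10.33 to 11.09 in OSKT, 10.19 to 10.56 in OSE and 10.56 to 10.92 in OSK clones, against 11.57 to 11.64 in R1. Of 10 trophoblast markers 9 were higher, with means of 8.99 to 10.16 in OSKT, 8.76 to 9.69 in OSE and 9.30 to 9.93 in OSK clones, against 7.47 to 7.59 in R1. Gata3 and Hand1 were below background on every R1 array, and Tead4 and Hand1 on every OSE array. The part of these cell types in the members' differences was not tested. Of 16 fibroblast markers 6 were higher and 1 lower, and with their mean as a covariate 18 of the 21 calls held. The part of fibroblast cells was not tested either.

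Each factor set was also set against R1, in comparisons that share the R1 arrays. OSKT clones had 9 higher and 13 lower members, beside 54.3% of all features called (26.4% higher and 27.9% lower). OSE clones had 7 higher and 16 lower, beside 58.7% (28.7% and 29.9%). OSK clones had 8 higher and 12 lower, beside 53.8% (25.8% and 28%). With a common median the members split into 6 higher and 19 lower for OSKT (19.2% and 35.1% of all features) and 1 higher and 19 lower for OSK (16.9% and 37.7%). The clones did not overlap R1 in 14 members for OSKT (41.2%, beside 37.3% of all features), 15 for OSE (44.1%, beside 42.9%) and 12 for OSK (35.3%, beside 36.9%). Ino80 differed from R1 by -0.89 in OSKT, -1.31 in OSE and -1.25 in OSK clones. Mtf2 differed by -0.62, -1.19 and -0.83 in the same order, and Kdm5b by 0.86, 0.29 and 0.77. For Kdm5b in OSE the call was lost with a common median (0.13, adjusted p = 0.236), near-identical arrays averaged (0.34, adjusted p = 0.232), the replicate block (0.14, adjusted p = 0.114) and the clone number range as a term (0.14, adjusted p = 0.101), and without OSE replicate 8, R1 replicate 3 or R1 replicate 4 (adjusted p 0.0509 to 0.074). Ino80 and Mtf2 passed in all 3 factor sets. Phf19 was higher in OSKT clones by 0.58 on the log2 scale (SE 0.17, adjusted p = 0.00506), but by 0.22 with the clone number range as a term (adjusted p = 0.0505), and with near-identical arrays averaged it did not pass (adjusted p = 0.2). In OSE clones Phf19 did not pass, at -0.35 on the log2 scale (SE 0.18, adjusted p = 0.0971).

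The comparison of OSKT with OSK clones addresses what Tbx3, a T-box protein of the pluripotency network, adds to the other factors. In OSKT clones 10 members were higher and 5 lower, 44.1% of the 34 beside 35.5% of all features (19.5% higher and 16% lower). The median difference was 0.03 over the members and 0.0022 over all features. The genes higher in OSKT were Cbx2, Phf19 and Mtf2 of Polycomb, Ino80, Kat5 and Sin3a, the NuRD genes Mbd3 and Hdac1, and Trim28 and Ehmt1. The lower ones were Rnf2 and Eed of Polycomb, Hdac2, Kdm4c and Ash2l. The sets overlapped for all 34 members, while 1.35% of all features had no overlap. With a common median 11 members were higher and 5 lower, beside 20.9% and 9.85% of all features.
Cbx2 lay between 8.91 and 9.23 (median 9.03) in OSKT clones, against between 8.39 and 8.91 (median 8.77) in OSK clones. The ranges only touched, near 8.91. The difference was 0.40 on the log2 scale (SE 0.07, adjusted p = 1.78e-05), 1.32-fold higher, and it was 0.40 in either range of clone numbers, 1 to 4 and 5 to 11.
Phf19 lay between 9.00 and 10.20 (median 9.80) in OSKT clones, against between 8.70 and 9.71 (median 9.42) in OSK clones. The sets overlapped widely, with a difference of 0.40 on the log2 scale (SE 0.13, adjusted p = 0.0129). Ino80 lay between 8.79 and 9.31 (median 9.05) in OSKT clones, against between 8.41 and 8.96 (median 8.59) in OSK clones, a difference of 0.36 on the log2 scale (SE 0.07, adjusted p = 9.23e-05), 1.28-fold higher, with 11 of 11 OSKT clones above the OSK mean. Mbd3, the methyl-binding-domain protein of NuRD, lay between 10.50 and 10.78 (median 10.68) in OSKT clones, against between 10.13 and 10.66 (median 10.31) in OSK clones. It was above the OSK mean in 11 of 11 OSKT clones, by 0.28 on the log2 scale (SE 0.06, adjusted p = 0.000793). Trim28 (0.23), Kat5 (0.23), Sin3a (0.22), Mtf2 (0.21), Hdac1 (0.17) and Ehmt1 (0.13) followed with smaller differences. Clones 1 to 4 gave Mtf2 a difference of -0.032 and Hdac1 one of 0.026, and neither passed there, while clones 5 to 11 gave 0.35 and 0.26, which passed. Ehmt1 passed in neither range (0.18, adjusted p = 0.0888, and 0.10, adjusted p = 0.195), Trim28 not in clones 1 to 4 (0.19, adjusted p = 0.127) and Kat5 not in clones 5 to 11 (0.18, adjusted p = 0.107).

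**Figure D3:**
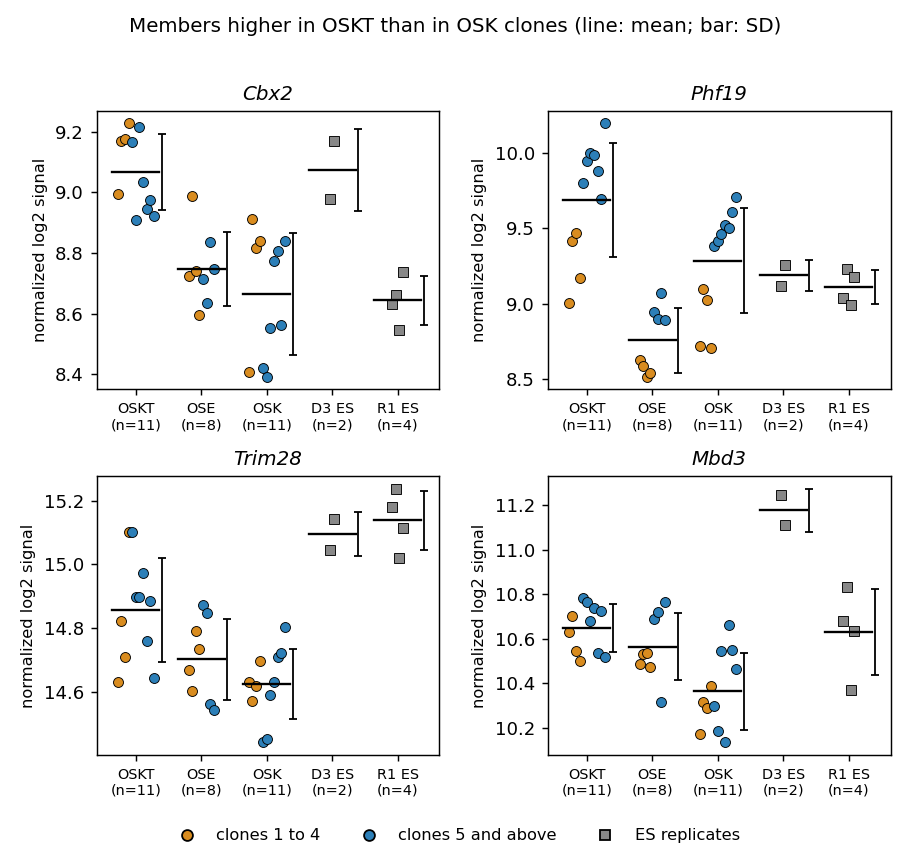
Normalized log2 signal of Cbx2, Phf19, Trim28 and Mbd3 on every array of OSKT, OSE and OSK clones and of D3 and R1, with lines for means and bars for SDs. OSKT averaged 9.07 ± 0.12 for Cbx2, against 8.67 ± 0.20 in OSK (SD, n = 11 each); in Phf19, clones 1 to 4 lie low in OSKT, OSE and OSK alike.

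Rnf2 lay between 7.45 and 8.63 (median 7.80) in OSKT clones, against between 7.72 and 8.73 (median 8.51) in OSK clones. Most OSKT clones lay under the OSK median, with a difference of -0.48 on the log2 scale (SE 0.16, adjusted p = 0.0156), 1.39-fold lower, with 10 of 11 OSKT clones below the OSK mean. Hdac2 lay between 11.62 and 12.18 (median 11.83) in OSKT clones, against between 12.15 and 12.59 (median 12.31) in OSK clones. It was below the OSK mean in 11 of 11 OSKT clones, with a difference of -0.47 on the log2 scale (SE 0.09, adjusted p = 6.57e-05), 1.39-fold lower. Eed lay between 11.70 and 12.53 (median 12.14) in OSKT clones, against between 12.23 and 12.77 (median 12.55) in OSK clones, a difference of -0.40 on the log2 scale (SE 0.11, adjusted p = 0.00533), 1.32-fold lower. Ash2l averaged 10.68 ± 0.22 in 11 OSKT clones and 10.94 ± 0.15 in 11 OSK clones (± SD), a difference of -0.26 on the log2 scale (SE 0.09, adjusted p = 0.0157). Kdm4c averaged 9.54 ± 0.34 in the OSKT clones and 9.88 ± 0.34 in the OSK clones (± SD), a difference of -0.33 on the log2 scale (SE 0.13, adjusted p = 0.0388). Leaving out any 1 of OSK clones 5, 6, 7, 8, 10 or 11 or OSKT clones 1 to 4 ended the Kdm4c call (adjusted p 0.0573 to 0.0805).
Of the 5 lower members, Rnf2 (-0.92), Eed (-0.74), Hdac2 (-0.68), Ash2l (-0.52) and Kdm4c (-0.32) all passed within clones 1 to 4. Within clones 5 to 11 the differences of OSKT from OSK were -0.23, -0.21, -0.35, -0.12 and -0.35 in the same order, of which those of Hdac2 and Kdm4c passed. Jarid2, which was not called over all clones, differed by -0.84 within clones 1 to 4, where it passed, and by -0.14 within clones 5 to 11; the difference between the clone ranges was not tested. Markers of other cell types moved with the clone number. The mean of 8 primitive endoderm markers, of which 1 was called (lower) in OSKT against OSK, lay between 9.58 and 10.42 in OSKT clones 1 to 4 and between 8.54 and 8.81 in OSKT clones 5 to 11, against 9.68 to 9.74 and 8.95 to 9.46 in the OSK clones of those numbers. Of 10 trophoblast markers 3 were higher and 4 lower in OSKT, and their mean lay between 9.82 and 10.16 and between 8.99 and 9.17 in OSKT, against 9.89 to 9.93 and 9.30 to 9.82 in OSK clones of those ranges. Of 16 fibroblast markers 1 was higher and 2 lower, with means of 9.52 to 9.77 and 9.07 to 9.22 in OSKT, against 9.66 to 9.88 and 8.90 to 9.40 in OSK clones. Of 14 pluripotent cell markers 3 were higher and 0 lower, with means of 10.33 to 10.60 and 10.82 to 11.09 in OSKT, against 10.56 to 10.69 and 10.56 to 10.92 in OSK clones. The part of these markers in the members' differences was not tested. After near-identical clones were averaged, Cbx2, Trim28, Hdac2 and Ino80 still passed in OSKT against OSK.

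Across the 30 clones Eed, Rnf2, Jarid2 and Hdac2 varied together, except that Hdac2 did not follow the others among the OSE clones without OSE 8. After the mean of its factor set was subtracted from each clone, Pearson correlations of the 6 pairs ran from 0.76 to 0.87, while the median over all 561 pairs of members was 0.12 and 41 pairs exceeded 0.7. Eed and Rnf2, a core subunit of PRC2 and the catalytic subunit of PRC1, had r = 0.87 (Spearman's rho 0.78), and 0.78 without OSE 8 and OSKT 1, the clones farthest from the Eed median. Rnf2 and Jarid2 had r = 0.84 (rho 0.69), and 0.67 without OSE 8 and OSK 8. Without OSE 8 alone the 6 pairs ran from 0.58 (Rnf2 and Hdac2) to 0.77 (Eed and Rnf2). Within the sets, the Eed and Rnf2 correlation was 0.82 over 11 OSKT, 0.94 over 8 OSE and 0.78 over 11 OSK clones. Over the OSK clones Hdac2 had r = 0.84 with Eed, 0.59 with Rnf2 and 0.54 with Jarid2. Correlations within OSE include OSE 8, and they were not computed over the other OSE clones alone. Among those, OSE 6 had the highest Rnf2 and Eed (8.79 and 12.75) but the lowest Hdac2 (12.23). OSE 2 had the lowest Rnf2 and Eed (8.29 and 12.19) and a Hdac2 of 12.51. Between these clones Hdac2 thus ran against Rnf2 and Eed. These correlations are descriptions of pairs chosen for them, over clones that are partly near-identical and no p is given. The low clones were OSE 8 (Eed 11.38, Rnf2 7.10, Jarid2 6.02, Hdac2 11.56), OSK 8 for Rnf2 and Jarid2 (7.72 and 6.73), and several OSKT clones. Among these the lowest was OSKT 1 for Eed (11.70), OSKT 2 for Rnf2 (7.45), OSKT 8 for Jarid2 (6.80) and OSKT 3 for Hdac2 (11.62). Rnf2 stood above background on 7 of 8 OSE arrays. Jarid2 did so on 8 of 11 OSKT, 7 of 8 OSE and 10 of 11 OSK arrays. The lowest values of Rnf2 and Jarid2 thus lie near background. OSE 8 and OSK 8 were also among the dimmest arrays, with a 75th percentile of 337.3 and 345.1 intensity units within a range of 337.3 to 1056.7, while OSKT 4 had 1056.7. The part of array brightness was not tested.

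**Figure D4:**
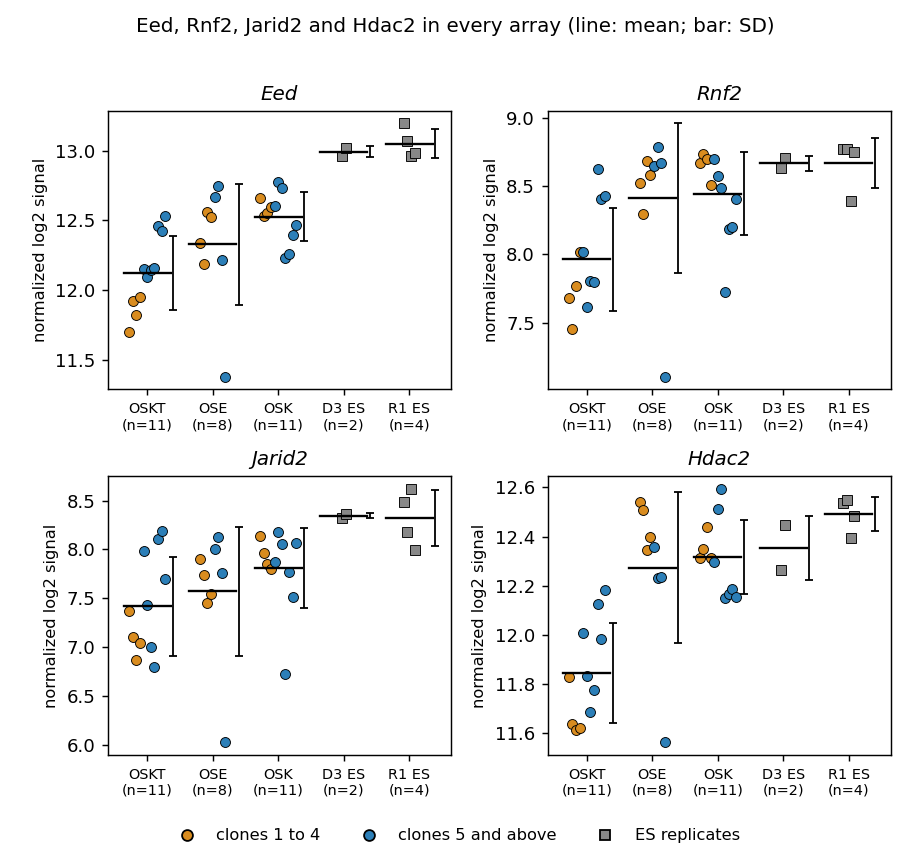
Normalized log2 signal of Eed, Rnf2, Jarid2 and Hdac2 on every array of OSKT, OSE and OSK clones and of D3 and R1; circles are clones, coloured by clone number, squares ES replicates, lines means and bars SDs. OSE 8 is the lowest OSE clone in all 4 panels, and the lowest OSKT clone is one of clones 1 to 4 for Eed, Rnf2 and Hdac2, and OSKT 8 for Jarid2.

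The promoters of the 4 genes that varied together, and of Ino80, the member farthest from R1, are shown for what their sequences share. The windows cover 250 bases before to 50 after the annotated start, 5′ to 3′ on the gene's strand, from RefSeq on GRCm38.p6; for Jarid2 the more upstream of 2 windows is given. Capitals mark GC boxes (GGGCGG) and CCAAT boxes (CCAAT) on either strand, which nowhere overlapped in these windows.
Eed, chr7:89980927-89981226, minus strand: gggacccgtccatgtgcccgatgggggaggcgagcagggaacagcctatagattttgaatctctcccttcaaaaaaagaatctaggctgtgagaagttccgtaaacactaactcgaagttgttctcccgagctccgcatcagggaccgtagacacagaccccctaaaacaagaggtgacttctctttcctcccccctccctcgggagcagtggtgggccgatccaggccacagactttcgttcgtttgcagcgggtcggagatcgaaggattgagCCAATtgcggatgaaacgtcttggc
Rnf2, chr1:151500942-151501241, minus strand: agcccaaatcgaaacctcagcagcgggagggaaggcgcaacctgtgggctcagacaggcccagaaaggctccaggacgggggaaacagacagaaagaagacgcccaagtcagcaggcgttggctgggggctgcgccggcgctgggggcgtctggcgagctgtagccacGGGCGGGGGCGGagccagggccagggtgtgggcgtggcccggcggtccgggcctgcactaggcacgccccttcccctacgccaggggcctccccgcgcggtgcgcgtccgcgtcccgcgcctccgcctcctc
Jarid2, chr13:44730524-44730823, plus strand: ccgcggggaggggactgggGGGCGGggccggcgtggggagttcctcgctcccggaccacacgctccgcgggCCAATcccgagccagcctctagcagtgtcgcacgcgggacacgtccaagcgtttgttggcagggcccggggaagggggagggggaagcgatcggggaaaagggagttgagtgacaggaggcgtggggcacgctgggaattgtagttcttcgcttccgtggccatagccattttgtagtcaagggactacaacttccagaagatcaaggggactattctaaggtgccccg
Hdac2, chr10:36974294-36974593, plus strand: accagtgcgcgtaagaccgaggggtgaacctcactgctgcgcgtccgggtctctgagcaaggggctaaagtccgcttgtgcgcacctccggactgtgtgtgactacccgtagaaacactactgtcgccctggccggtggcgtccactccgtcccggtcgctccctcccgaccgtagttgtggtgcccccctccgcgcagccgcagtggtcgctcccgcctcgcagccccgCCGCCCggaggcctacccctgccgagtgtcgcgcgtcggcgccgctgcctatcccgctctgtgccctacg
Ino80, chr2:119477638-119477937, minus strand: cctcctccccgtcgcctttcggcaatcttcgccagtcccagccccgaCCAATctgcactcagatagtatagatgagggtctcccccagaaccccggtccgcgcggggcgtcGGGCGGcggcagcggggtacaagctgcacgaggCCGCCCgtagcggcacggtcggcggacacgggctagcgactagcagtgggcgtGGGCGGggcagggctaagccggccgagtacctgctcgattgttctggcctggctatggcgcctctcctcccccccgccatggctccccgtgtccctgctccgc
No arrangement of these motifs was common to the 4 genes. Eed had 1 CCAAT box and no GC box, Rnf2 had 2 GC boxes, Jarid2 had 1 of each, and Hdac2 had 1 GC box, while Ino80 had 3 GC boxes and 1 CCAAT box. All 5 windows were rich in CpG, with 17 in Eed, 30 in Rnf2, 24 in Jarid2, 36 in Hdac2 and 32 in Ino80, beside a median of 7 over 32851 windows. A window was found for 42 of the 47 listed and 30 of the 34 tested members. Over the 40 windows of tested members, 75% held a GC box, beside 35.7% of all windows, and 40% a CCAAT box, beside 37.4%. The letters TCAAGGTCA, an element bound by Esrrb, and AGGTGTGA, an element of T-box factors, were each in none of the 40 windows, beside 0.423% and 1.28% of all; CACCC, the core of many Klf sites, was in 45%, beside 57.5%. A match or its absence describes these letters in these windows alone.

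The comparison of OSE with OSK clones addresses Esrrb, an orphan nuclear receptor, in place of Klf4. In OSE clones 8 members were higher and 10 lower, 52.9% of the 34 beside 45.8% of all features (23.2% higher and 22.6% lower). The median difference was -0.05 over the members and 0.0022 over all features. With a common median the split was 11 higher and 7 lower (28.4% and 16.4% of all features), and on the authors' scaled values 3 members were higher and 11 lower (16.8% and 23.6% of all features). The lower members included all 3 tested demethylases, Phf19 and Mtf2 of PRC2, Cbx7, Ehmt2, Sin3a, Wdr5 and Hdac1. The higher ones included 3 of 4 BAF genes and 4 of 7 CHD and NuRD genes, and Ash2l.
Fibroblast markers moved with this comparison, since 12 of 16 were higher and none lower in OSE. Their mean lay between 9.31 and 10.38 in OSE and between 8.90 and 9.88 in OSK clones, where Dcn was below background on every array. Among the 14 pluripotent cell markers 8 were lower and 1 higher in OSE, from a list that includes Esrrb and Klf4, the factors in which these sets differ. With the fibroblast mean as a covariate, 11 members passed, among them 8 of the 18 called without it. That mean averaged 10.03 in OSE and 9.40 in OSK clones, so the covariate is partly confounded with the factor set. A call kept or lost with it does not tell their parts apart. The part of fibroblast cells in the members' differences was not tested.
Kdm4c lay between 8.97 and 9.81 (median 9.24) in OSE clones, against between 9.35 and 10.38 (median 10.02) in OSK clones. All OSE clones were below the OSK mean, with a difference of -0.60 on the log2 scale (SE 0.14, adjusted p = 0.000616), 1.51-fold lower, and the value was 0.0099 with the fibroblast covariate. Kdm5b lay between 11.40 and 12.13 (median 11.68) in OSE clones, against between 11.98 and 12.34 (median 12.16) in OSK clones. It was below the OSK mean in 8 of 8 OSE clones, with a difference of -0.48 on the log2 scale (SE 0.08, adjusted p = 9.4e-06), 1.4-fold lower, and it passed with the covariate too (-0.18, adjusted p = 0.0364).
Phf19 lay between 8.51 and 9.07 (median 8.76) in OSE clones, against between 8.70 and 9.71 (median 9.42) in OSK clones, a difference of -0.53 on the log2 scale (SE 0.14, adjusted p = 0.00202), and -0.04 with the covariate. Mtf2 lay between 12.56 and 13.02 (median 12.82) in OSE clones, against between 13.01 and 13.29 (median 13.16) in OSK clones. Only the top of the OSE range reached the OSK clones, and the difference was -0.36 on the log2 scale (SE 0.07, adjusted p = 4.43e-05), 1.28-fold lower, which held with the covariate (-0.28, adjusted p = 0.00894). Cbx7 differed by -0.38 on the log2 scale (SE 0.09, adjusted p = 0.00105), Ehmt2 by -0.33 on the log2 scale (SE 0.08, adjusted p = 0.00052) and Sin3a by -0.31 on the log2 scale (SE 0.07, adjusted p = 0.000778), and with the covariate they stood at 0.015, -0.08 and -0.03 and did not pass. Wdr5 (-0.23), Hdac1 (-0.20) and Kdm1a (-0.19) were lower by less, and none of these 3 passed with a common median (-0.11, -0.07 and -0.05) or with the covariate (0.10, -0.16 and 0.092).
Ash2l lay between 11.12 and 11.93 (median 11.32) in OSE clones, against between 10.72 and 11.13 (median 11.01) in OSK clones. It was above the OSK mean in 8 of 8 OSE clones, by 0.48 on the log2 scale (SE 0.09, adjusted p = 5.99e-05), 1.4-fold higher, and held with the covariate (0.74, adjusted p = 2.74e-07). In BAF, Smarca4 lay between 9.56 and 9.84 (median 9.70) in OSE clones, against between 9.28 and 9.58 (median 9.40) in OSK clones. Its difference was 0.24 on the log2 scale (SE 0.07, adjusted p = 0.00298). Smarcb1, a core subunit, was higher by 0.22 on the log2 scale (SE 0.05, adjusted p = 0.00114). Smarcd1 was also higher by 0.22 on the log2 scale (SE 0.07, adjusted p = 0.00857). Smarcc1, the remaining BAF gene tested, stood at -0.09. All 3 higher BAF genes held with the covariate.
Chd4 lay between 10.80 and 10.96 (median 10.87) in OSE clones, against between 10.49 and 10.77 (median 10.68) in OSK clones. The sets did not overlap, as for 8.11% of all features, and the difference was 0.21 on the log2 scale (SE 0.05, adjusted p = 0.000295). Chd1, a remodeller of open chromatin in ES cells, was higher by 0.23 on the log2 scale (SE 0.10, adjusted p = 0.0457), Mbd3 by 0.20 on the log2 scale (SE 0.07, adjusted p = 0.0184) and Mta2 by 0.18 on the log2 scale (SE 0.06, adjusted p = 0.0191). In the scaled table Chd4, Chd1, Mbd3, Mta2 and Smarcb1 did not pass (adjusted p 0.0792 to 0.421). Chd1 also lost its call without any 1 of OSE clones 1, 2, 4 or 8 or OSK clones 1, 3, 4, 5 or 6. After near-identical clones were averaged, 10 members passed in OSE against OSK.

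Kdm4c, Cbx7, Kdm1a, Sin3a, Phf19, Wdr5 and Kdm5b were all lower in OSE, and the others also varied with Kdm4c across the clones. Their correlations with Kdm4c over the 30 clones, after the set means were subtracted, ran from 0.77 (Wdr5) to 0.91 (Cbx7). All 7 ran against the fibroblast marker mean, with r from -0.92 (Kdm4c) to -0.74 (Phf19). Over 8 OSE clones alone Phf19 was looser, with r = 0.50 with Kdm4c and -0.45 with the fibroblast marker mean. For Kdm4c the correlation was -0.90 over 11 OSKT, -0.97 over 8 OSE and -0.94 over 11 OSK clones, and -0.92 (rho -0.89) over all 30; it was -0.92 without OSE 8 and OSK 1, the clones farthest from the median fibroblast mean. Eed, Rnf2, Jarid2 and Hdac2 ran against that mean in OSKT clones, and with it in OSE clones when OSE 8 was included. OSE 8 was the lowest OSE clone in that mean (9.31) and in all 4 genes. The direction over the other OSE clones alone was not computed. Over 11 OSKT clones r was -0.80, -0.41, -0.45 and -0.65 in that order, over 8 OSE clones 0.94, 0.84, 0.74 and 0.75, and over 11 OSK clones 0.04, 0.23, 0.07 and 0.09. Over all 30 clones r was 0.15 to 0.28, and without OSE 8 it was -0.25 to -0.04. In clones 1 to 4 Kdm4c lay between 8.98 and 9.26 in OSKT, between 8.97 and 9.35 in OSE and between 9.35 and 9.65 in OSK, and in higher-numbered clones between 9.57 and 10.11, between 9.04 and 9.81 and between 9.86 and 10.38. The pairs were chosen for their correlation, so no p is given.

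**Figure D5:**
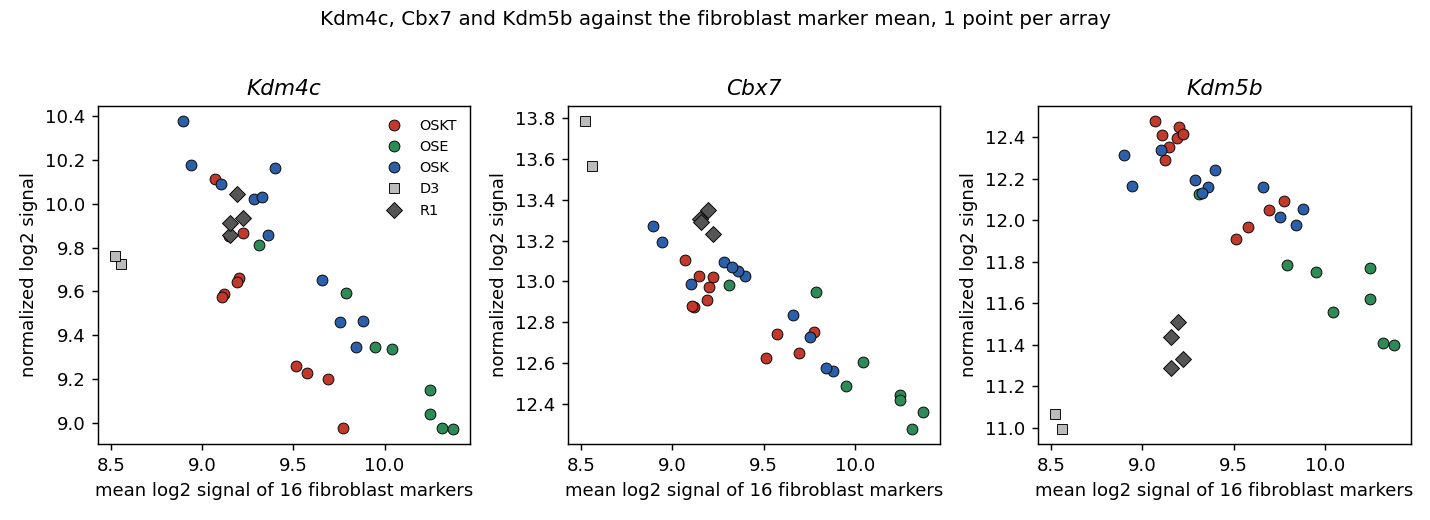
Normalized log2 signal of Kdm4c, Cbx7 and Kdm5b on the vertical axes against the mean log2 signal of 16 fibroblast markers, 1 point per array, with OSKT, OSE, OSK, D3 and R1 in different colours. Among the clones each gene falls as the marker mean increases (r = -0.92, -0.90 and -0.80 after set means are removed), while for Kdm5b the R1 replicates lie apart, below the clones of like marker mean.

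D3 was compared with R1 as a pair of ES lines; line and medium cannot be told apart. In D3, 6 members were higher and 0 lower, 17.6% of the 34 beside 9.73% of all features (4.66% higher and 5.07% lower), in a limma fit where 2 replicates meet 4. By an unadjusted p under 0.05, 11 members were higher and 4 lower in D3 (32.4% and 11.8%, beside 11.5% and 10.3% of all features). Smarcd1 had 9.37 and 9.44 in the D3 replicates, against 8.58, 8.74, 8.66 and 8.58 in the R1 replicates, a difference of 0.77 on the log2 scale (SE 0.13, adjusted p = 9.38e-05), 1.7-fold higher. Mbd3 had 11.25 and 11.11 in the D3 replicates, against 10.68, 10.83, 10.37 and 10.63 in the R1 replicates, a difference of 0.55 on the log2 scale (SE 0.13, adjusted p = 0.00495). For these genes the lines did not overlap, nor for 18 of the 34 members (52.9%, beside 49.1% of all features). Cbx2 (0.43), Chd4 (0.38), Ehmt1 (0.35) and Smarcb1 (0.34) were the other calls. Cbx2, Ehmt1, Smarcb1 and Chd4 did not pass with a common median, under which 2 members were higher and 1 lower, beside 2.18% and 4.88% of all features. Without D3 replicate 1 the calls of Mbd3 (adjusted p = 0.137), Cbx2, Ehmt1 and Smarcb1 were lost, and without D3 replicate 2 those of Chd4 (adjusted p = 0.0666), Cbx2, Ehmt1 and Smarcb1. The call of Cbx2 was also lost without R1 replicate 1, 2 or 3, and that of Smarcb1 without R1 replicate 3. Smarcd1 kept its call without any 1 array, and no member passed with near-identical arrays averaged.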

How the data were processed

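Gene expression was measured in 36 samples (11 OSKT, 8 OSE, 11 OSK, 2 D3 and 4 R1). The authors deposited signal intensity values that had not been scaled between arrays, read with BeadStudio per the submitters' processing notes, with its version not given in the sources used here. Background had been subtracted, since 25.4% to 29.6% of measured probes lay below 0. A second deposited table held the same intensity values after scaling and served as an alternative. Of 24613 probes, 5893 held only values between -5.5 and 15.5 on every array and were taken as placeholders, leaving 18720. Symbols came from the supplied platform annotation, updated through gene identifiers, which named 20984 probes by 1 symbol and 1 by several and left 3628 unnamed.

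In limma 3.58.1 (R 4.3.3), background was modelled with normexp (saddle method, offset 16), arrays were quantile-normalized, and log2 was taken. A signal was above background past the 99th percentile of a normal distribution fitted to the negative signals (45.2 to 90.8 intensity units). A minimum of 4 arrays past that level kept 10572 probes, and taking the highest-mean probe for each gene gave 10533 features. A linear model with 1 mean per group, moderated variance and an intensity trend was fitted to all arrays, with 2-sided p-values adjusted by Benjamini-Hochberg. Tested on simulated data with log2 changes of 0.5, it called 75% for the iPS clones against R1, 87% for OSKT against OSK, 81% for OSE against OSK and 34% for D3 against R1.

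The members and gene lists were chosen with earlier results of these data known. All measured members could be named; per comparison up to 10 passing members by size of difference are given in full, and of other lists up to 4 genes with the smallest adjusted p. Pairs of members that varied together were chosen after their values were seen. Promoter windows came from RefSeq on GRCm38.p6. Alternatives were the scaled table, common-median scaling, no background correction, no or a stricter filter (18 arrays), every probe as a feature, averaging of near-identical arrays, the compared groups fitted alone, array weights, a replicate block, the clone number range, a fibroblast marker covariate and each array left out.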

Additional observations from a re-analysis of the deposited data

Results flagged for a closer look

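In 6 of the 68 sets of values of a member in the 8 OSE clones or the 4 R1 replicates, 1 sample stood far from the others, by Dixon's 95% criterion, which chance meets in about 1 in 20 such sets. OSE 8 accounted for 5 of the 6. It was the lowest OSE clone for Eed (11.38, nearest clone 12.19), Jarid2 (6.02, nearest 7.45), Rnf2 (7.10, nearest 8.29) and Hdac2 (11.56, nearest 12.23), and the highest for Ezh2 (11.10, nearest 10.60). Jarid2 and Rnf2 each stood above background on 7 of 8 OSE arrays. OSE 8 was also the dimmest of the 36 arrays, with a 75th percentile of 337.3 intensity units, and the OSE clone with the lowest fibroblast marker mean (9.31). The part of either in its values was not tested. Among the R1 replicates, R1 3 was low for Rnf2 (8.39, nearest 8.75).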

How the results depend on the processing

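The members called numbered 21 for the iPS clones against R1, 15 for OSKT against OSK, 18 for OSE against OSK, 22, 23 and 20 for OSKT, OSE and OSK against R1, and 6 for D3 against R1. Averaging near-identical arrays, which leaves 1 R1 sample and 1 D3 sample and hence fewer degrees of freedom, reduced these to 11, 4, 10, 10, 11, 8 and 0. With the fibroblast marker mean as a covariate, 11 members passed for OSE against OSK. For D3 against R1 the count was 3 with a common median, beside 2.18% of all features higher and 4.88% lower. It was 15 with the compared groups fitted alone, 17 with array weights, 13 with the clone number range as a term and 15 with the fibroblast covariate. The shares of all features under these latter settings are not given here, so the larger counts cannot be read as particular to the members. The cause was not tested. Leaving out each array in turn gave 19 to 22, 14 to 16, 14 to 21, 21 to 24, 18 to 23, 18 to 21 and 2 to 6, with 14 for OSE against OSK without OSE replicate 4, and 2 for D3 against R1 without either D3 replicate. The clone and replicate numbers did not pair samples: 47 same-numbered pairs correlated from -0.26 to 0.63, 19 above 0.1, and 8 of 36 samples correlated best with their own number. The replicate block gave 24, 17, 18, 25, 24, 22 and 10 members, likewise without the shares of all features beside them. The block ended the call of Mta2 for OSE against OSK, with a log2 difference of 0.13.

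Directions reversed in 12 member results. With the fibroblast covariate, Kdm4c stood at 0.023 for the iPS clones against R1. For OSE against OSK under that covariate, Cbx7 stood at 0.015, Kdm1a at 0.092, Kdm4c at 0.0099 and Wdr5 at 0.10, and for OSE against R1, Ezh2 at 0.010, Ehmt2 at 0.11, Kdm4c at 0.17, Ash2l at 0.061, Sin3a at 0.057 and Kat5 at 0.0090. Mtf2 stood at -0.032 for OSKT against OSK within clones 1 to 4. With a common median, the median difference of all features was -0.10 for OSKT against R1 and -0.12 for OSK against R1, beside -0.0030 and 0.0082 with quantiles. On the scaled values OSKT against OSK had 10 higher and 3 lower members, beside 17.7% of all features higher and 12.9% lower. For D3 against R1, 34% of simulated log2 changes of 0.5 were recovered, so smaller differences there were mostly not detectable.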

Other observations

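Chromatin genes outside the 47 were counted by lists chosen from general knowledge with earlier results known. In the iPS clones against R1, 4 of 20 other INO80, SRCAP and Tip60 genes were higher and 9 lower (65% called, beside 57% of all features). Ing3 and the scaffold genes Epc2 and Epc1 of the Tip60 complex were lower, with log2 differences of -1.07, -0.88 and -0.72 (adjusted p = 2.63e-12, 1.48e-18 and 8.05e-12), and the helicase gene Ruvbl1 was higher by 0.51 (adjusted p = 2.49e-10). Of 16 deacetylases and acetyltransferases 4 were higher and 6 lower (62.5% called). Kat7 at -1.32, Kat2b at -1.08 and Sirt1 at -0.95 were among the lower ones (adjusted p = 2.49e-12, 2.07e-11 and 1.26e-13). Among 15 other Polycomb genes 80% were called. Of these, 6 were higher, led by Pcgf5 at 1.06 (adjusted p = 1.86e-07), and 6 lower, such as Aebp2 at -0.57 (adjusted p = 2.16e-06). Zfp57, which recruits Trim28 to imprinted regions, was lower at -1.32 (adjusted p = 1.78e-07). Of 22 developmental regulators known as Polycomb targets, 11 were higher and 2 lower, among them Gata3 at 2.08 and Irx3 at 1.48. That is 59.1% called, near the 57% of all features (28% higher and 29% lower). Their median difference was 0.43, beside 0.010 over all features. Gata3 is also a trophoblast marker, and the part of Polycomb in these differences was not tested.

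In OSE against OSK clones, Gatad2a, a subunit of NuRD, was 3.20-fold higher (log2 difference 1.68, adjusted p = 1.51e-22), and Cdk2ap1, another NuRD subunit, 1.59-fold higher (0.67, adjusted p = 1.04e-10); 8 of 13 other NuRD and Sin3 genes were higher and 2 lower, beside 45.8% of all features called. In OSKT against OSK, 8 of 15 other Polycomb genes were higher and 1 lower, beside 35.5% of all features, among them L3mbtl2 (0.51), Scmh1 (0.50), Bcor (0.44) and Pcgf6 (0.29). The X-linked demethylase gene Kdm6a was higher in OSKT by 0.46 (adjusted p = 1.69e-07) and the histone chaperone gene Hira by 0.45 (adjusted p = 3.11e-06).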
